A study of Mus musculus with 6 samples.

Results

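The genes of the major histocompatibility complex (MHC, called H2 in the mouse) and of antigen presentation were measured in the liver of control and trichloroethylene (TCE) treated mice. They were taken by name: every array probe that was not a control and whose gene symbol starts with H2-, or is B2m, Tap1, Tap2, Tapbp, Psmb8, Psmb9, Psmb10, Cd74, Ciita, Nlrc5, Erap1 or Cd1d1. This gave 52 genes, 40 with an H2- symbol and 12 listed ones, out of 24239 gene symbols on the array, read by 70 probes. The 6 animals were male B6C3F1 mice aged 7 weeks, first-generation offspring of C57BL/6 and C3H parents. The 3 control mice received corn oil by mouth for 5 days, and the 3 TCE mice received TCE, a chlorinated solvent, dissolved in corn oil at 1000 mg/kg body weight per day for the same 5 days. Whole liver RNA of each mouse was hybridized to its own one-colour Agilent array, so the values hold all liver cell types together, at 1 dose and 1 time in 1 sex.

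Class I molecules sit on nearly all nucleated cells, hepatocytes included, and show peptides from inside the cell to CD8 T cells and natural killer cells. Each is a polymorphic heavy chain held by the light chain beta-2 microglobulin (B2m). Its peptides are cut by the proteasome, whose interferon-inducible catalytic subunits are Psmb8, Psmb9 and Psmb10, pumped into the endoplasmic reticulum by Tap1 and Tap2, trimmed by Erap1 and loaded with the help of tapasin (Tapbp). Class II molecules are made mainly by dendritic cells, B cells and macrophages, show peptides taken up from outside to CD4 T cells, and need the invariant chain Cd74 and the exchange factor H2-DM to be loaded. Nlrc5 is the transactivator of class I genes and Ciita that of class II genes.

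No member passed the threshold of an adjusted p of 0.05 or less with a fold change of 2 or more (limma, Benjamini-Hochberg over all detected probes), and none passed the adjusted p alone. Of all 13284 genes tested, 1.73% passed the first rule and 2.39% the second. The lowest adjusted p of a member by limma was 0.107, shared by H2-Q1, which was higher in TCE mice, and H2-Eb1, which was lower. The methods' t-test at its own threshold (an unadjusted p of 0.05 or less and 2-fold) took 0 members, beside 3.09% of all genes, and after Benjamini-Hochberg adjustment it also took 0.

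Of the 52 genes, 37 were tested, each through its probe of highest mean signal among the detected ones. All 37 of these probes were well above background on each of the 6 arrays, so none was tested through 1 group alone. For the other 15 no probe reached that level on every array of either group. They were 9 of the 25 non-classical class I heavy chains (H2-M1, H2-M10.1, H2-M10.2, H2-M10.3, H2-M10.4, H2-M10.6, H2-M5, H2-M9 and H2-T18), the class II chains H2-Ea-ps and H2-Eb2, the exchange factor genes H2-DMb2, H2-Oa and H2-Ob, and Ciita. All 8 genes of the class I light chain and peptide processing were tested.

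The log2 fold changes of the members (TCE minus control) ran from −0.62 to 0.93, or 0.651-fold to 1.91-fold, and their median was 0.05, beside 0.02 over all 13284 genes. Of the 37 genes 21 had a higher and 16 a lower mean in TCE mice. The 95% confidence interval stayed within 2-fold both ways for 32 of the 37. It reached past 2-fold for Psmb9, H2-M11, H2-Q1, H2-Aa and Nlrc5, so for these a 2-fold difference lies within the error.

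**Figure D1:**
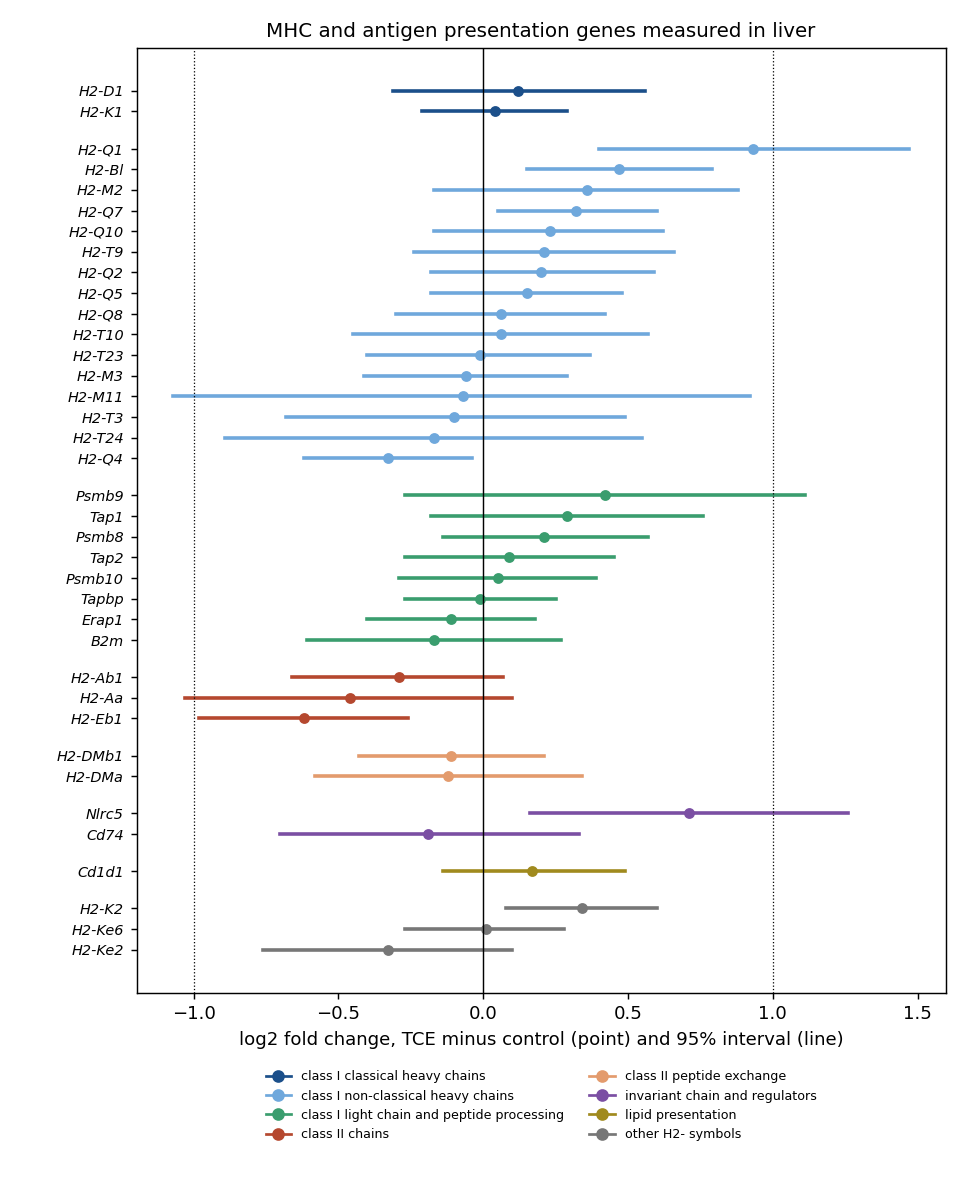
Log2 fold change (TCE minus control, x axis) of the 37 tested genes with its 95% confidence interval, grouped and coloured by role; the dotted lines mark 2-fold. The 5 class II genes (H2-Ab1, H2-Aa, H2-Eb1, H2-DMb1 and H2-DMa) all lie left of 0, the class I and processing genes lie on both sides, and the outermost interval bounds are −1.07 and 1.47.

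At an unadjusted limma p under 0.05, 5 members were higher in TCE mice (13.5% of the 37, beside 12% of all genes): H2-Q1, H2-Bl, H2-Q7, Nlrc5 and H2-K2. At the same unadjusted p, 2 members were lower (5.41%, beside 7.11% of all genes): H2-Q4 and H2-Eb1. Among the tested members, the same 5 and 2 genes were those whose control and TCE mice did not overlap, which was so for 17.1% of all genes upward and 10.8% downward. These shares were near or under those of the whole array.

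The classical class I heavy chains H2-K1 and H2-D1, which present most peptides to CD8 T cells, had group means that differed by less than their standard errors. H2-K1 (chr17:34133055-34133114 on mm9, the build of all probe positions given here) had log2 signals of 16.53, 16.41 and 16.44 in control mice 1 to 3 and 16.52, 16.52 and 16.45 in TCE mice 1 to 3. The mice of the groups interleave. The difference was 0.04 ± 0.10 (SE, n = 3 per group, limma adjusted p = 0.886), with an interval from −0.21 to 0.29.

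H2-D1 (chr17:35403886-35403945) had log2 signals of 14.15, 14.06 and 13.81 in control mice and 14.44, 13.91 and 14.03 in TCE mice. TCE mouse 1 was the highest of the 6 and the other TCE mice lay among the controls. The difference was 0.12 ± 0.18 (SE, limma adjusted p = 0.765, interval −0.31 to 0.56), and without TCE mouse 1 it was −0.04, so its sign rests on that mouse.

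The light chain B2m (chr2:121978401-121978460), without which heavy chains do not stay at the surface, had log2 signals of 16.56, 16.56 and 16.25 in control mice and 16.14, 16.09 and 16.61 in TCE mice. TCE mouse 3 was the highest of all and the other TCE mice the lowest. The difference was −0.17 ± 0.18 (SE, limma adjusted p = 0.666). Leaving out 1 mouse moved it to between −0.34 (without TCE mouse 3) and −0.08 (without TCE mouse 2), and it was −0.28 without control mouse 3, −0.11 without TCE mouse 1 and −0.12 without either of the other controls.

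The promoters of these genes are printed because class I heavy chains, B2m and class II chains are known to share upstream elements: an X box that holds a cyclic AMP response element (core letters TGACG) followed by a Y box (ATTGG). Classical class I promoters also carry a kappa B site further upstream. The stretches below are 130 bases each, 5′ to 3′ along the gene, from RefSeq windows of 250 bases before to 50 after the start site on GRCm38.p6, the C57BL/6 reference. Capitals mark GGATTCC, the centre of the kappa B site, TGACG and ATTGG, searched on both strands. H2-K1 has 2 windows and the first is shown. In H2-Aa the capitals at TGACG run on because the letters overlap a match on the other strand.

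H2-K1 (chr17:34000349-34000478, - strand): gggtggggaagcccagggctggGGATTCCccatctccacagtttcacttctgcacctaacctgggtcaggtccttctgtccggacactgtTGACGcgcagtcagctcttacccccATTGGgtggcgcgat
H2-D1 (chr17:35262903-35263032, + strand): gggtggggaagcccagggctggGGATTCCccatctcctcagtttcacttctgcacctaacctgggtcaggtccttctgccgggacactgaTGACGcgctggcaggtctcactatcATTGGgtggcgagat
H2-Q7 (chr17:35439000-35439129, + strand): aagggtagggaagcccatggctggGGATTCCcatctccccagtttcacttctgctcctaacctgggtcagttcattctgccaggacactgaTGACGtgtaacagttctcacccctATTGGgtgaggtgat
B2m (chr2:122147519-122147648, + strand): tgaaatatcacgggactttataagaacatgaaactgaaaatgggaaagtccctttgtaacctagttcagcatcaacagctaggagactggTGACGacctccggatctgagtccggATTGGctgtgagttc
H2-Aa (chr17:34287857-34287986, - strand): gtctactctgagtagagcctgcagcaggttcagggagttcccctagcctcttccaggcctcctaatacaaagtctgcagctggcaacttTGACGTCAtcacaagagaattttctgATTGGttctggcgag
H2-Eb1 (chr17:34305693-34305822, + strand): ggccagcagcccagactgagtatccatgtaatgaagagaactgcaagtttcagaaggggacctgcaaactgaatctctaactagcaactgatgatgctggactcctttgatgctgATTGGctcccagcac
H2-Q10 (chr17:35469901-35470030, + strand): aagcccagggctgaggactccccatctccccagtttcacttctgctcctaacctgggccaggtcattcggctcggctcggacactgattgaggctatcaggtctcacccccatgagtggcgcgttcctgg

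Windows were found for 35 of the 52 members. A member was counted by gene, with a match in any of its windows, while the whole set was counted by window. The shares set side by side are therefore not of like units. GGATTCC was in 3.79% of all 32851 windows and in those of 4 members (11.4%): H2-K1, H2-D1, H2-Q7 and H2-M5. TGACG followed 20 to 30 bases on by ATTGG, read along the gene, was in 82 windows (0.25%), among them those of 6 members: H2-K1, H2-D1, H2-Q7, H2-M3, B2m and H2-Aa. The letters are spaced 25, 25, 24, 25 and 26 bases apart in H2-K1, H2-D1, H2-Q7, B2m and H2-Aa.

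TGACG alone was found for 13 of the 35 members (37.1%, beside 20.8% of all windows) and ATTGG for 29 (82.9%, beside 37.4%). TTCNNNGAA (N is any base), the sequence bound by STAT factors, was in H2-DMb2, H2-M11, H2-M3 and Psmb8 (11.4%, beside 8.3%). The H2-Q10 window, from a gene known for its expression in hepatocytes, held none of the 3 capitalized motifs. The log2 fold changes of the tested genes with the spaced TGACG and ATTGG letters were of both signs: 0.04 for H2-K1, 0.12 for H2-D1, 0.32 for H2-Q7, −0.06 for H2-M3, −0.17 for B2m and −0.46 for H2-Aa. A match of letters is a description of the sequence, and binding was not measured.

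Over the 8 peptide processing genes the median log2 difference was 0.07, with 5 higher and 3 lower, and none passed an unadjusted p of 0.05 by limma. Psmb9 (LMP2, chr17:34319174-34319233), an inducible catalytic subunit, had log2 signals of 10.77, 10.96 and 11.14 in control mice and 11.54, 10.75 and 11.83 in TCE mice. TCE mice 1 and 3 were above all controls and TCE mouse 2 below them. The difference was 0.42 ± 0.29 (SE, limma adjusted p = 0.498), and it was 0.73 without TCE mouse 2 and 0.19 without TCE mouse 3.

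Psmb8 (LMP7, chr17:34337771-34337830), its partner in the immunoproteasome, had log2 signals of 10.99, 11.17 and 11.39 in control mice and 11.54, 11.31 and 11.33 in TCE mice. Control mouse 3 fell among the TCE mice. The difference was 0.21 ± 0.15 (SE, limma adjusted p = 0.506). Psmb10, the remaining inducible subunit, differed by 0.05 (limma adjusted p = 0.895).

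Tap1 (chr17:34330854-34330913), a subunit of the peptide transporter that shares its promoter region with Psmb9, had log2 signals of 7.01, 7.13 and 7.05 in control mice and 7.77, 7.20 and 7.10 in TCE mice. Only TCE mouse 1 stood clear of the rest. The difference was 0.29 ± 0.19 (SE, limma adjusted p = 0.486) and was 0.09 without TCE mouse 1. The start sites of Tap1 and Psmb9 lie 226 bases apart on opposite strands (chromosome 17, 34187556 and 34187330, GRCm38.p6).

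Its partner Tap2 (chr17:34353116-34353175) had log2 signals of 11.51, 11.49 and 11.86 in control mice and 11.69, 11.59 and 11.85 in TCE mice. Control mouse 3 and TCE mouse 3 were the highest and nearly equal. The difference was 0.09 ± 0.15 (SE, limma adjusted p = 0.804). Tapbp, which bridges the transporter and the empty class I molecule, differed by −0.01 and Erap1, the trimming peptidase, by −0.11 (limma adjusted p = 0.975 and 0.674).

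**Figure D2:**
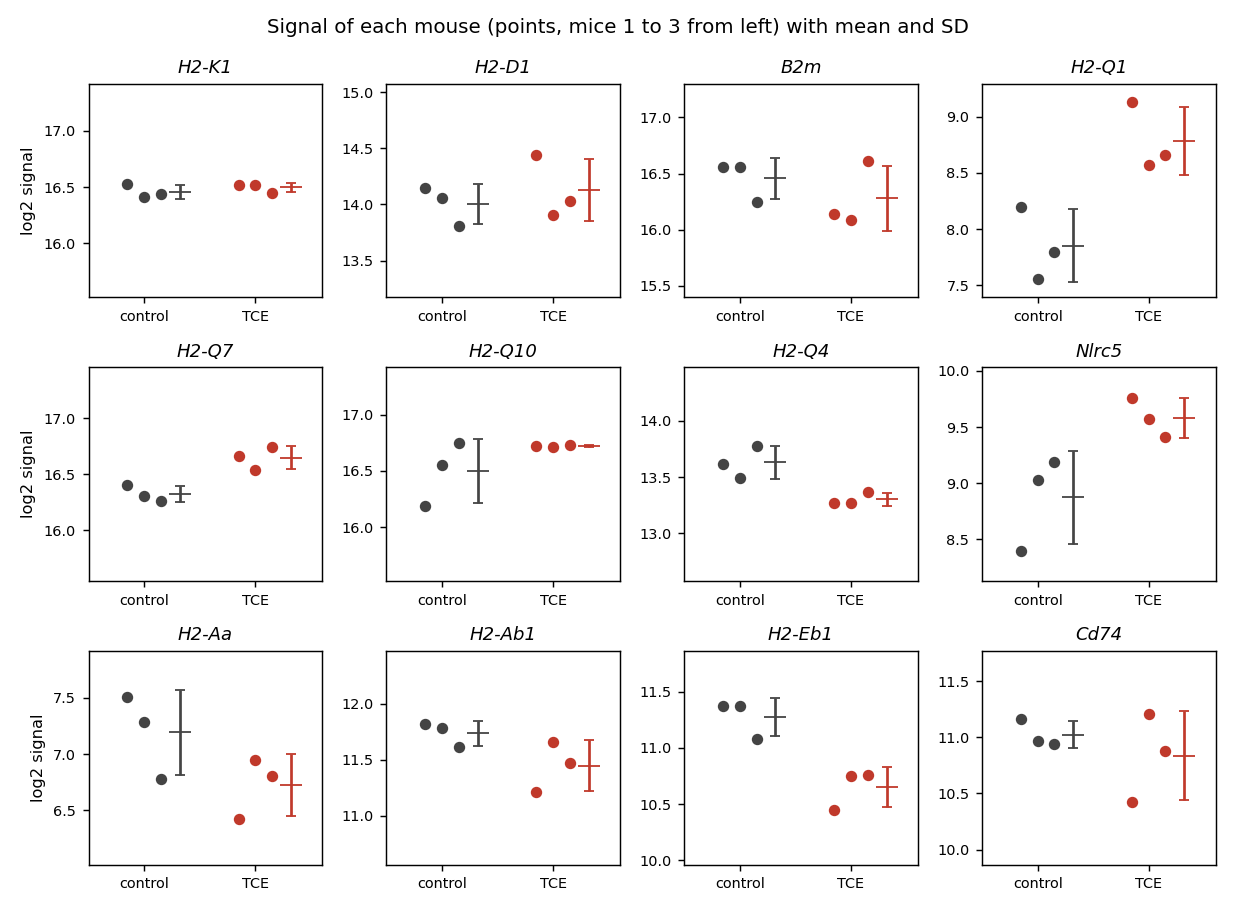
Log2 signal (y axis, the same span of 1.9 in each panel) of 12 genes in the 3 control mice (grey) and the 3 TCE mice (red), with the mean and SD of each group beside the points. H2-Q1, H2-Q7 and Nlrc5 lie higher in every TCE mouse than in any control, H2-Q4 and H2-Eb1 lower, and the other 7 genes overlap.

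The non-classical class I genes, which are less polymorphic and often have special ligands or tissues, had a median difference of 0.11 on the log2 scale over 16 tested genes, 10 higher and 6 lower. The members of the H2-Q cluster had a median of 0.20 (6 higher, 1 lower of 7), the H2-T genes one of −0.01 (2 higher, 3 lower of 5) and the H2-M genes one of −0.06 (1 higher, 2 lower of 3). H2-Q1 (chr17:35461859-35461918), the member with the largest fold change, had log2 signals of 8.20, 7.56 and 7.80 in control mice and 9.13, 8.57 and 8.66 in TCE mice. All 3 TCE mice were above all controls. The difference was 0.93 ± 0.22 (SE, 1.91-fold, limma unadjusted p = 0.00504, adjusted p = 0.107), and over the alternative settings the adjusted p ran from 0.0774 to 0.3.

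H2-Bl, a class I gene that the RefSeq table lists as a transcribed pseudogene and for which the array gives no position, had log2 signals of 13.82, 13.76 and 13.66 in control mice and 14.40, 14.21 and 14.04 in TCE mice. The groups did not overlap. The difference was 0.47 ± 0.13 (SE, limma unadjusted p = 0.0109, adjusted p = 0.145).

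H2-Q7 (chr17:35580315-35580374), a Qa-2 gene whose product is held in the membrane by a lipid anchor, had log2 signals of 16.40, 16.31 and 16.26 in control mice and 16.66, 16.54 and 16.74 in TCE mice. The groups did not overlap and the gap between them was small. The difference was 0.32 ± 0.11 (SE, limma unadjusted p = 0.0278, adjusted p = 0.218).

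H2-Q4 (chr17:35521294-35521353), another Qa gene, went the other way, with log2 signals of 13.62, 13.49 and 13.78 in control mice and 13.27, 13.27 and 13.37 in TCE mice. The groups did not overlap. The difference was −0.33 ± 0.12 (SE, limma unadjusted p = 0.0333, adjusted p = 0.237). The 7 H2-Q genes tested were therefore not of 1 sign. H2-T23 (Qa-1), which shows leader peptides of other class I chains to natural killer receptors, differed by −0.01, and H2-M3, which binds formylated peptides, by −0.06.

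H2-Q10 codes for a secreted class I molecule made mainly by the liver, and its 2 detected probes disagree in size. The probe with the higher signal (chr17:35611449-35611508) read 16.19, 16.55 and 16.75 in control mice and 16.72, 16.71 and 16.73 in TCE mice, a difference of 0.23 (limma adjusted p = 0.519). The other read 14.94, 14.89 and 14.79 in control mice and 15.78, 15.30 and 15.33 in TCE mice, a difference of 0.60 (limma unadjusted p = 0.00852, adjusted p = 0.132). By the first the groups overlap through control mouse 3, and by the second every TCE mouse is above every control.

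H2-Q2 was alike. Its probe with the higher signal (chr17:35482113-35482172) differed by 0.20 (limma adjusted p = 0.557). Its other probe read 14.62, 14.07 and 14.48 in control mice and 15.35, 14.99 and 14.90 in TCE mice, without overlap, a difference of 0.69 (limma unadjusted p = 0.0113, adjusted p = 0.147). By the array's positions this dimmer probe (chr17:35460007-35460066) lies nearer to the H2-Q1 probe (chr17:35461859-35461918) than to the other H2-Q2 probe. Which of these genes it reads was not tested. The dimmer H2-Q2 probe and the dimmer H2-Q10 probe match at 45 of 50 aligned bases, so both may bind the same transcripts.

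Such sharing is a property of the array in this family. Among the 70 member probes, which are 60 bases long, 4 pairs of different genes shared a run of at least 20 bases or matched at 40 or more aligned bases. Stretches of 30 bases from each pair are shown because the values of these genes may not be separate, with capitals at the letters that differ.

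H2-K1, probe with the lower signal: Ctggagctgtggtggcttttgtgatgaaga
H2-T23: Ttggagctgtggtggcttttgtgatgaaga
H2-Q7: TCtctcctgtgacatccagagccctcagtt
H2-K2, probe with the lower signal: CAtctcctgtgacatccagagccctcagtt
H2-Q10, probe with the lower signal: catcacccAGgatctGaaggtgatgtcacc
H2-Q2, probe with the lower signal: catcacccCAgatctCaaggtgatgtcacc
H2-Q10, probe with the higher signal: agaataCTtAGAGTttgtggaggaaataaa
H2-T3: agaataTCtGAGTAttgtggaggaaataaa

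The longest shared run was 29 bases for H2-K1 and H2-T23, 28 for H2-Q7 and H2-K2, 22 for H2-Q10 and H2-T3 and 19 for H2-Q10 and H2-Q2. H2-Q7 and H2-K2 probes match at 49 of 57 aligned bases. H2-K2, a transcribed pseudogene in the RefSeq table, read 16.76, 16.58 and 16.62 in control mice and 16.98, 17.02 and 16.99 in TCE mice by its probe with the higher signal (chr17:34111920-34111979). The groups did not overlap. The difference was 0.34 ± 0.11 (SE, limma unadjusted p = 0.0175, adjusted p = 0.178), and the probe like that of H2-Q7 gave 0.45 (adjusted p = 0.158). The latter (chr17:34111941-34112000) overlaps the former in position, so it is not a separate measurement.

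The second H2-K1 probe, which shares its run with H2-T23, read 15.37, 15.26 and 14.96 in control mice and 14.90, 15.11 and 15.21 in TCE mice, a difference of −0.12 (limma adjusted p = 0.724). It thus had the opposite sign to the first H2-K1 probe, and neither passed the threshold. B6C3F1 mice carry 1 MHC haplotype from each parent strain, and whether each probe binds the alleles of both alike was not tested.

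**Figure D3:**
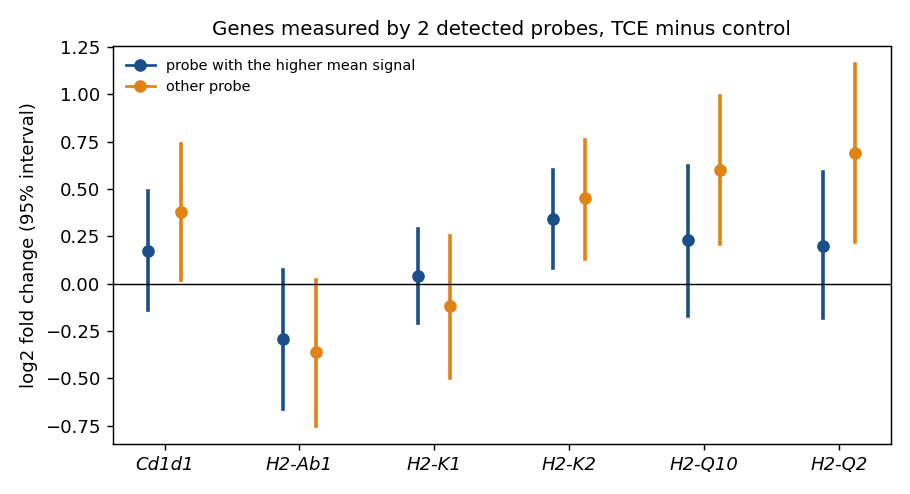
Log2 fold change (TCE minus control, y axis) with its 95% confidence interval for the 6 genes with 2 detected probes; blue is the probe with the higher mean signal, orange the other. The signs agree in all but H2-K1, and the orange probes of H2-Q10 (0.60) and H2-Q2 (0.69) lie above the blue ones (0.23 and 0.20).

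The class II genes had lower means in TCE mice for all 5 that were tested, and the median log2 fold change was −0.29 beside 0.02 over all genes. None passed the threshold. In bulk liver RNA, fewer cells of a type and less RNA per cell cannot be told apart. H2-Eb1 (chr17:34453075-34453134), the beta chain of the E molecule, had log2 signals of 11.37, 11.37 and 11.08 in control mice and 10.45, 10.75 and 10.76 in TCE mice. Every TCE mouse was below every control. The difference was −0.62 ± 0.15 (SE, 0.651-fold, limma unadjusted p = 0.00503, adjusted p = 0.107), and over the alternative settings the adjusted p ran from 0.064 to 0.317.

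H2-Aa (chr17:34421285-34421344), the alpha chain of the A molecule, had log2 signals of 7.51, 7.29 and 6.78 in control mice and 6.42, 6.95 and 6.81 in TCE mice. Control mouse 3 fell among the TCE mice. The difference was −0.46 ± 0.23 (SE, limma adjusted p = 0.361), and −0.31 without control mouse 1 or TCE mouse 1.

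Its beta chain H2-Ab1 (chr17:34406296-34406355) had log2 signals of 11.82, 11.78 and 11.61 in control mice and 11.21, 11.66 and 11.47 in TCE mice. TCE mouse 2 reached above control mouse 3. The difference was −0.29 ± 0.15 (SE, limma adjusted p = 0.371), and −0.18 without TCE mouse 1. A second probe (chr17:34406305-34406363) gave −0.36 (limma adjusted p = 0.304), with every TCE mouse below every control. Its position overlaps that of the first probe, so it is not a separate measurement. The exchange factor chains H2-DMa and H2-DMb1 differed by −0.12 and −0.11 (limma adjusted p = 0.785 and 0.704).

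Cd74, the invariant chain that blocks the class II groove until the endosome, had log2 signals of 11.16, 10.97 and 10.94 in control mice and 10.42, 11.21 and 10.88 in TCE mice. TCE mouse 1 was the lowest of the 6 and TCE mouse 2 the highest. The difference was −0.19 ± 0.21 (SE, limma adjusted p = 0.689), and without TCE mouse 1 it was 0.02.

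H2-Ea-ps, the alpha chain partner of H2-Eb1, did not rise well above background in any of the 6 mice. The C57BL/6 haplotype is known to carry a defective allele of this gene and the C3H haplotype a working one. Ciita was well above background in 2 control mice and in no TCE mouse, with log2 signals of 5.49, 5.12 and 4.78 in controls and 4.30, 3.05 and 2.85 in TCE mice. It was not tested. Every TCE mouse was below every control. With no filter on dim probes its difference was −1.73 ± 0.44 (SE, limma adjusted p = 0.291), and with the normexp background it was −0.38, so its size depends on how background is taken off.

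Nlrc5 (chr8:97051105-97051164), the class I transactivator, had log2 signals of 8.40, 9.03 and 9.19 in control mice and 9.76, 9.57 and 9.41 in TCE mice. The groups did not overlap, and control mouse 1 was well below the rest. The difference was 0.71 ± 0.23 (SE, 1.64-fold, limma unadjusted p = 0.0189, adjusted p = 0.183). A second Nlrc5 probe was well above background in 1 control and 2 TCE mice and was not tested.

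Control mouse 1 was hybridized on a slide of its own and the other 5 mice shared a second slide. Within the shared slide the log2 difference was 0.48 for Nlrc5 (limma adjusted p = 0.275), 1.11 for H2-Q1 (0.117) and −0.57 for H2-Eb1 (0.241). H2-Q10, whose probe with the higher signal was lowest in control mouse 1, differed by 0.07 within the shared slide, in place of 0.23. No member passed the threshold with slide as a block.

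Set side by side, the arms of the pathway had median log2 fold changes of 0.09 for 18 class I heavy chains, 0.07 for 8 processing genes and −0.29 for 5 class II genes. The class I arm holds H2-Bl, H2-Q5 and H2-T10, which the RefSeq table lists as transcribed pseudogenes, but not the pseudogene H2-K2. Taking each gene's log2 signal minus its control mean, the class II median was 0.09, 0.04 and −0.13 in control mice and −0.53, −0.21 and −0.27 in TCE mice. For class I heavy chains the medians were 0.07, 0.02 and −0.07 in control mice and 0.29, −0.02 and 0.14 in TCE mice. The class II medians do not overlap between the groups and the class I medians do. The gap in class II is narrow, from −0.13 in control mouse 3 to −0.21 in TCE mouse 2. Cd74, whose groups overlap, was not counted in the class II arm. The genes of an arm come from the same 6 livers and are not replicates, so these medians carry no test, and no test of a difference between the arms was made.

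**Figure D4:**
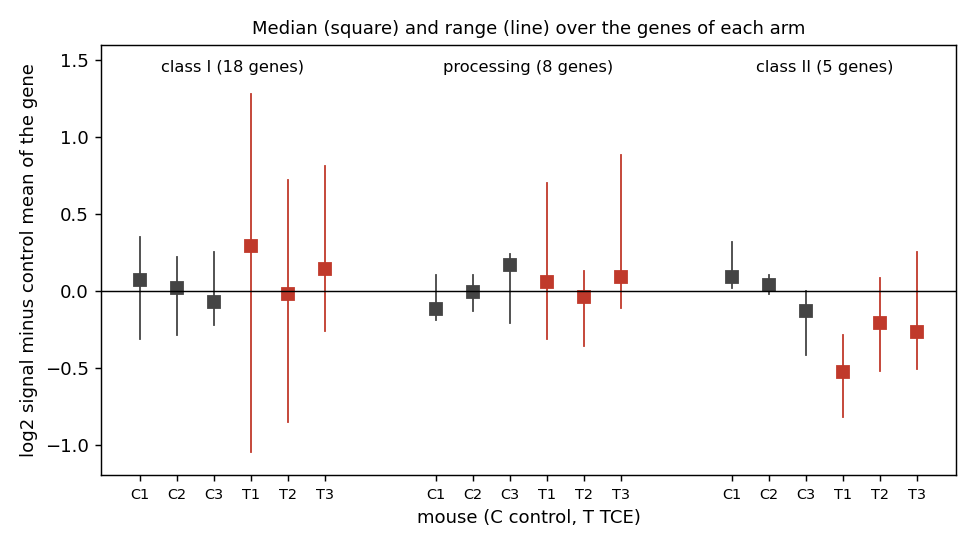
Median (square) and range (line) over the genes of each arm of the log2 signal minus the gene's control mean (y axis), for control mice C1 to C3 (grey) and TCE mice T1 to T3 (red). The class II medians of TCE mice (−0.53, −0.21 and −0.27) lie under those of all controls, with ranges that overlap, while the class I and processing medians of the groups interleave.

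Within class II, the 3 chains differed more than the exchange factor genes. The median of the chains was −0.77, −0.24 and −0.38 in TCE mice and 0.09, 0.10 and −0.19 in control mice, and all 3 genes were below their control mean in every TCE mouse but also in control mouse 3.

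The samples were checked for liver and for the cells that carry class II. All 8 hepatocyte markers, among them Alb, Ttr and Hnf4a, were well above background on all 6 arrays. Of 9 dendritic cell markers, Flt3, Xcr1 and Cd209a were well above background on no array. The summed signal of that list was 17000 to 22900 in control and 15400 to 22500 in TCE mice, but nearly all of it came from 1 gene, Siglech, whose log2 difference was −0.03 (limma unadjusted p = 0.873, adjusted p = 0.951). The 4 tested genes, Siglech, Batf3, Zbtb46 and Clec9a, all had lower means (median −0.21), with overlapping groups in each. Of the 9 dendritic cell markers, 2 were well above background on all 6 arrays. The other tested ones were thus tested through 1 group alone, so their direction carries little weight. Of the B cell genes, Cd22 was at −1.21 (limma unadjusted p = 0.048, adjusted p = 0.274) and Cd79a at 0.40 (unadjusted p = 0.19, adjusted p = 0.498), both with overlapping groups.

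The T and NK cell list summed to 16400 to 20100 in control and 6080 to 16000 in TCE mice, which do not overlap. That gap is set by 1 gene, Cd4, which made up most of the sum and was at −0.93 (limma unadjusted p = 0.0505, adjusted p = 0.279). The groups overlapped for Cd3e (−0.63, limma unadjusted p = 0.0482, adjusted p = 0.275), Nkg7 (−0.19) and Gzma (−0.05). Cd3g, Cd8a, Klrb1c and Ncr1 were well above background on no array.

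The sums of the other lists overlapped, while the means of most of their genes were lower in TCE mice. Of 9 Kupffer cell and macrophage markers 8 were lower (median −0.12), with sums of 24500 to 27900 in control and 23300 to 29300 in TCE mice. All 6 endothelial markers were lower (median −0.16), with sums of 17100 to 19900 and 8960 to 20800, and Stab2 was at −0.54 without overlap (limma adjusted p = 0.345). Of 6 stellate cell markers 5 were tested and 4 were well above background on all 6 arrays. The remaining tested one was tested through 1 group alone. Of the 5 tested 4 were lower (median −0.25), with list sums of 25900 to 39000 and 29200 to 34800. Among these, Lrat was at −1.35 (limma unadjusted p = 0.00186, adjusted p = 0.0676) and Colec11 at −0.25 (adjusted p = 0.361), both without overlap. Lower means were thus found for most tested markers of the non-hepatocyte cell types, some tested through 1 group alone, beside the lower class II means. Of 8 hepatocyte markers 6 were lower too (median −0.08). Among these 6, Apoa1 was at −0.31 (limma unadjusted p = 0.0265, adjusted p = 0.215) and Apob at −0.37 (unadjusted p = 0.0105, adjusted p = 0.143), both without overlap. The pan-leukocyte gene Ptprc went the other way, at 0.65 without overlap (limma unadjusted p = 0.102, adjusted p = 0.381). It was not well above background on all 6 arrays, so it was tested through 1 group alone. None of these markers passed the threshold, and their part in the class II values was not tested.

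The remaining tested members lay between these values. Cd1d1 (chr3:86799791-86799850), which shows lipids to natural killer T cells, differed by 0.17 (limma adjusted p = 0.542) and by 0.38 through its second probe (adjusted p = 0.255). H2-M2 differed by 0.36 (limma adjusted p = 0.45) by 1 probe with a control mean of 14.08. Its second probe stayed near background throughout, with a control mean of 3.76. The brighter probe stood for H2-M2 in the class I medians, and which transcripts it reads was not tested. H2-Ke6 and H2-Ke2, which lie in the MHC but code for a steroid dehydrogenase and the prefoldin subunit Pfdn6, differed by 0.01 and −0.33 (limma adjusted p = 0.985 and 0.393). H2-M11, H2-Q5, H2-Q8, H2-T3, H2-T9, H2-T10 and H2-T24 ranged from −0.17 (H2-T24) to 0.21 (H2-T9), with overlapping groups in each.

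Genes around the pathway that are no members gave a like picture. Of 42 listed, 40 were on the array under these symbols and 37 were tested: 17 had higher and 20 lower means in TCE mice (median −0.03), and 0 passed the threshold, with 4 higher and 3 lower at an unadjusted limma p under 0.05. Of all genes, 12% were higher and 7.11% lower at that p, so these counts are near the shares of the whole array. The peptide loading chaperones had 3 of 4 lower, among them calreticulin (Calr), which holds the class I heavy chain during loading, at −0.44 (limma unadjusted p = 0.0107, adjusted p = 0.144). The proteases that cut class II antigens were 3 higher and 3 lower of 6, with cathepsin D (Ctsd) at 0.57 (unadjusted p = 0.00389, adjusted p = 0.0979). Cathepsin B (Ctsb) was at 0.28 (limma unadjusted p = 0.0436, adjusted p = 0.264).

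Among 14 transcription factors and interferon gamma signalling genes, 12 were tested, 4 higher and 8 lower. Rfxap, a subunit of the RFX complex that binds the X box of class I and class II promoters, was at 0.54 (limma unadjusted p = 0.00226, adjusted p = 0.074). Nfyb, a subunit of the factor that binds the Y box, was at −0.44 (unadjusted p = 0.0169, adjusted p = 0.175). The interferon gamma receptor gene Ifngr2 was at 0.34 (limma unadjusted p = 0.022, adjusted p = 0.198). The proteasome and its activators were 4 higher and 2 lower of 6, with Psme3 at −0.74 (unadjusted p = 0.0143, adjusted p = 0.163). The MHC-like genes outside the H2 names were 4 higher and 2 lower of 6, and the costimulation genes 1 higher and 2 lower of 3.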

How the data were processed

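Liver RNA of 3 control and 3 TCE mice was measured on Agilent one-colour arrays, 1 per mouse. Per the labels and the file headers, the authors extracted the scans with Agilent Feature Extraction 10.7.1.1, and the deposited intensity per spot is corrected for background. The authors also deposited group mean intensity, group means of quantile-normalized log2 values, and flags. Its 6 flag columns could not be tied to single mice by name and were not used. Those deposited means of log2 values were within 0.01 of those computed here for 99.98% of probes.

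From 59305 spots that were not controls (55681 probes), outlier spots (123 to 189 per array) were left out, the intensity was taken to log2, spots of a probe were averaged and arrays were quantile normalized (R 4.3.3, data.table, version 1.17.8). Between 23538 and 24968 probes per array were well above background, no spot was saturated, and the number of arrays limits the precision. A probe was called detected where every array of at least 1 group (3 arrays) read it well above background, which left 22731 probes. They were tested with limma 3.58.1 (lmFit, eBayes, group alone in the model, two-sided p, Benjamini-Hochberg). Of several detected probes of a gene, that of highest mean signal stood for it. The scripts were tested on simulated data.

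Gene symbols are those of the array; 51 of 52 members matched the RefSeq genes and 49 kept their symbol. Probe positions are on mm9 and promoter sequences are from RefSeq on GRCm38.p6; what each probe lies in (exon, intron or UTR) was not analysed here. Values of every mouse are given for the chains, regulators and processing genes fixed as named and for members whose groups did not overlap; the second set was chosen after its values were seen. The members and lists were chosen with earlier results of these data known. The B cell marker list as a whole is not reported here.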

Additional observations from a re-analysis of the deposited data

How the results depend on the processing

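The counts of members past the adjusted p, with or without the 2-fold limit, were 0 under each alternative run (75th percentile scaling, normexp background, both filters on dim probes, outlier spots kept, trended and robust variance, slide as a block, each mouse left out), except that the methods' t-test without adjustment took 6 at any fold: H2-Bl, H2-Eb1, H2-K2, H2-Q1, H2-Q4 and H2-Q7. That t-test without adjustment took 3843 of all 22731 probes at any fold, so 6 of the 37 members is near the share of the array. Leaving out each mouse in turn gave 0 and 0 members, a class I median between 0.03 and 0.21, a processing median between 0 and 0.19 and a class II median between −0.40 and −0.18. The class I median was 0.21 without TCE mouse 2, and the processing median 0.19 without control mouse 3. Signs turned for H2-D1 (−0.04, range with a mouse left out −0.04 to 0.23) and Cd74 (0.02, range −0.38 to 0.02) without TCE mouse 1, and for H2-K1 (−0.04) as the mean of its detected probes; the cause was not tested. Over all 22731 probes 321 passed the threshold, against 63 with the replicate block, 177 with slide as a block, 35 by the methods' t-test after adjustment, 96 with no filter on dim probes, and 124 to 242 with a mouse left out. At the adjusted p alone 456 passed, against 63, 177, 58, 104 and 124 to 248 in the same order.

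With the replicate number as a block, 0 members passed either rule. Deviations of same-numbered mice correlated at 0.09, 0.01 and −0.09, and those of differently numbered mice at −0.11 to 0.11. No pairing by number was seen, but a check on so few mice cannot exclude one.

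With 3 mice a group the smallest p of an exact two-sided permutation test is 0.1. The median standard error of a member was 0.16 on the log2 scale, and the 15 members near background were not tested. In the simulated data, 0.597% of log2 changes of 0.5 were recovered, 36.1% of those of 1 and 74.5% of those of 2. Small changes were thus nearly all missed there, and most changes of 2-fold were missed too. The lack of members past the threshold therefore does not by itself exclude changes of 2-fold.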
